A study of Homo sapiens with 6 samples.

Results

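Notch signalling was examined through 10 genes: the receptors NOTCH1, NOTCH2 and NOTCH3, the ligands DLL3 and JAG1, the HES genes HES1, HES4 and HES6, and the HEY genes HEY1 and HEY2. They were taken by symbol from a table of 17081 genes, and all 10 symbols were found. The samples were tumour tissue of DMS114, a cell line of human small cell lung cancer, from a model of sciatic nerve invasion. The groups were distal tumour tissue (3 libraries) and proximal tumour tissue (3 libraries). Both groups carried the same line and no other treatment is given. The labels name no host species or day. They also leave unsaid whether a group's libraries were taken from different animals, and the p-values cover library-to-library spread alone, which may be technical. The whole model rests on a single cell line, and every piece could hold host tissue.

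Notch receptors are single-pass membrane proteins that are cut by proteases after a ligand on a neighbouring cell binds them. The freed intracellular domain enters the nucleus and joins the DNA-binding protein RBPJ at promoters such as those of the HES and HEY genes, which encode transcriptional repressors. In small cell lung cancer, Notch activity is known for holding down the neuroendocrine programme, and DLL3, an inhibitory ligand, is typical of neuroendocrine tumours. HES6 differs from HES1 in that it is known to counteract HES1 rather than to act as a Notch target.

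Stretches upstream of HES1 and HES4 are shown because both hold the RBPJ motif at nearly the same distance from the RefSeq start, while distal 3 and proximal 2 were the highest libraries for HES1 and the lowest for HES4. Each stretch begins 250 bases before the start in RefSeq's promoter table (GRCh38.p14) and ends with the motif, 5′ to 3′ on the gene's strand. Capitals mark the motif GTGGGAA, searched on both strands of the 250 bases. The HES1 stretch lies on the plus strand (chr3:194135898-194136069) and the HES4 stretch on the minus strand (chr1:1000168-1000347).
HES1: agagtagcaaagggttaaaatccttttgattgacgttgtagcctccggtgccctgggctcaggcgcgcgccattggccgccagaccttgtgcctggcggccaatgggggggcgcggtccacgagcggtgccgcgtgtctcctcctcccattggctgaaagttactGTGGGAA
HES4: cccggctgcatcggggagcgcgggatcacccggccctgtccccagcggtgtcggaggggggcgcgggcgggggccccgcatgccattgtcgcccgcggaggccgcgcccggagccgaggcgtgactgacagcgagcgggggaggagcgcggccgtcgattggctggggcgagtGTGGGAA

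The motif's nearest base was 79 bases before the RefSeq start of HES1 and 71 bases before that of HES4. RefSeq and GENCODE release 29, which gives the gene positions printed here, place some starts differently. The RefSeq start lay 3 bases inside the GENCODE gene for HES1 and 75 bases inside it for HES4, so the HES4 motif lies across the outermost GENCODE start. Of the 8 members with a window in the table, 3 held the motif. The other was HEY2, where it lay on the opposite strand, 207 bases before a RefSeq start that is 1968 bases inside the GENCODE gene. The windows of NOTCH1, NOTCH2, NOTCH3, JAG1 and HES6 did not hold these letters, and DLL3 and HEY1 were not in the table. The HES6 window also lay inside its GENCODE gene, whose outermost start is 624 bases before the RefSeq start. Of all 35116 windows of this length in the table, 5.43% held the motif at least once. A match describes the sequence and does not show binding.

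Total counts per library ran between 16171106 (distal 3) and 26116191 (proximal 1). The label of a small cell lung cancer cell was set against its neuroendocrine markers. The neuronal vesicle protein SYP was read at 56.9 to 63.9 CPM (reads of the gene relative to the library's total as scaled by TMM, the trimmed mean of M values) over the 6 libraries, and CHGA at 6.35 to 7.57 CPM. The neuroendocrine transcription factor INSM1 was read at 0.837 to 1.47 CPM. NEUROD1 had 6.47 CPM in distal 3 and at most 0.618 CPM elsewhere. POU2F3, listed with these genes but not itself a neuroendocrine marker, had at most 0.247 CPM. SYP, CHGA and INSM1 were thus read in every library, INSM1 at a low level. Not every neuroendocrine marker of the list is given, so these levels do not settle the label. Summed over 16 skeletal muscle markers, distal libraries held 44.2, 70.1 and 2583 CPM, and proximal libraries 46.7, 74.9 and 398 CPM, so distal 3 and proximal 3 stood apart. Schwann cell markers summed to 77.9 to 126 CPM in distal and 64.8 to 161 CPM in proximal libraries. Fibroblast markers summed to 4555 to 5605 CPM in distal and 5424 to 6135 CPM in proximal libraries. COL3A1 made up most of the fibroblast sum, with 3725 to 5104 CPM over the 6 libraries. DCN had 314 to 584 CPM and LUM 297 to 567 CPM, but PDGFRA only 0.244 to 1.28 CPM and FAP 0.831 to 2.99 CPM. Immune markers summed to 2.10 to 5.92 CPM in distal and 1.43 to 5.48 CPM in proximal libraries.

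Levels of different genes were compared per kilobase of exon, with lengths from GENCODE release 29, since the authors' annotation is not given in the sources used here. NOTCH3 (mean of 6 libraries 17.8 CPM per kb, range 15.6 to 20.1) and NOTCH2 (13.8, range 11.5 to 16.8) were the highest members. Their order depended on the length used, because with the longest coding transcript in place of all exons NOTCH2 had 20.3 and NOTCH3 19.3 CPM per kb. HES6 (8.17, range 7.32 to 10.6) and HES4 (7.60, range 4.50 to 10.2) followed, and their ranges overlapped. Next came DLL3 (3.70, range 2.42 to 4.94), HES1 (1.54, range 1.11 to 2.22), HEY1 (1.11, range 0.457 to 1.58), NOTCH1 (0.941, range 0.720 to 1.29), JAG1 (0.452, range 0.208 to 0.880) and HEY2 (0.140, range 0 to 0.262). Neighbours in this order overlapped in range except NOTCH2 with HES6, and DLL3 with HES1. With the longest transcript DLL3 and HES1 overlapped too (2.71 to 5.54 and 1.45 to 2.90 CPM per kb), and JAG1 and HEY2 did not (0.326 to 1.38 and 0 to 0.268).

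The members were not always the leading genes of their families. Among the receptors NOTCH4 was the lowest, at 0.140 CPM per kb. Among the ligands JAG2 (2.28 CPM per kb) lay above JAG1 in all 6 libraries and DLL1 (0.824) also had the higher mean, while DLL4, the endothelial ligand, had 0.0915 CPM per kb. DLL4 and the non-canonical ligand DLK1 did not pass the filter on low counts. DLL4 had 9, 6 and 3 reads in the distal libraries, against 25, 8 and 10 in the proximal ones, and DLK1 had 6, 3 and 7 reads in the distal libraries, against 6, 22 and 5 in the proximal ones. HEYL (1.53 CPM per kb), HES2 (1.23) and HES7 (1.08) had means near those of HES1 and HEY1. Exons of NOTCH4 overlap GPSM3 and those of JAG2 overlap AL512356.1, so their levels are uncertain. HES3 had 0 reads in each distal library, against 3, 2 and 0 in the proximal ones.

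**Figure D1:**
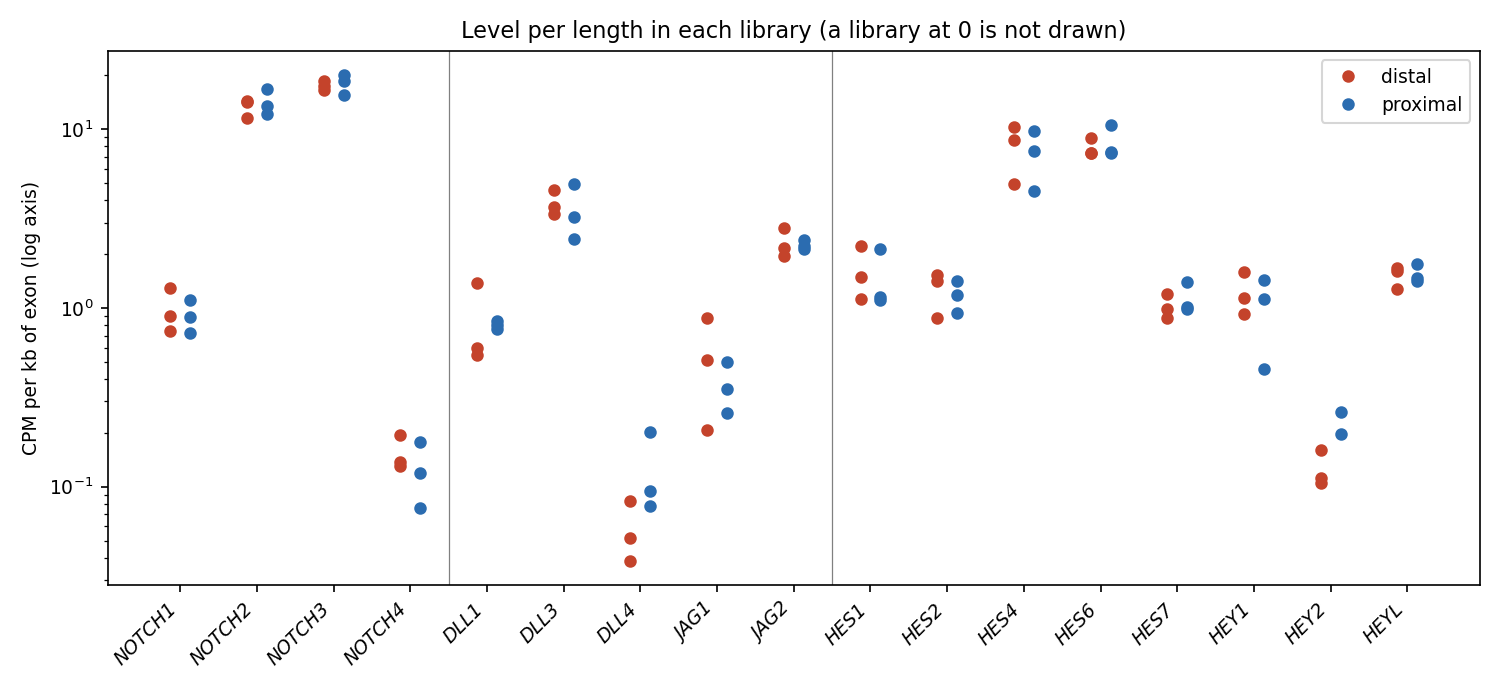
Level per length (CPM per kb of exon, log axis) of Notch receptors, ligands and HES and HEY genes in each distal (red) and proximal (blue) library, 1 point a library. NOTCH2 and NOTCH3 are the highest, at 11.5 to 20.1 CPM per kb, and the distal and proximal libraries overlap for every gene drawn, counting the proximal library of HEY2 at 0 that has no point. DLK1, DLK2 and HES3 are not drawn.

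No difference between distal and proximal tumour in these genes exceeded the spread between libraries. Of the 10 members, 9 passed the filter on low counts, and edgeR's quasi-likelihood test called 0 of them, beside 0% of the 13382 genes tested. None of the 9 had an unadjusted p under 0.05, a level that 1.33% of all tested genes reached, and DESeq2 and limma-voom also called 0. In none of the 9 did the groups separate without overlap, which 6.28% of all tested genes did (3.2% higher and 3.09% lower in distal). Log2 fold changes are distal minus proximal. They were positive for 6 members and negative for 3, with a median of 0.13 beside 0.0045 for all tested genes, and every adjusted p was 0.9997. The sign of each of the 9 turned round when a particular library was left out, so no direction is given for any of them.

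**Figure D2:**
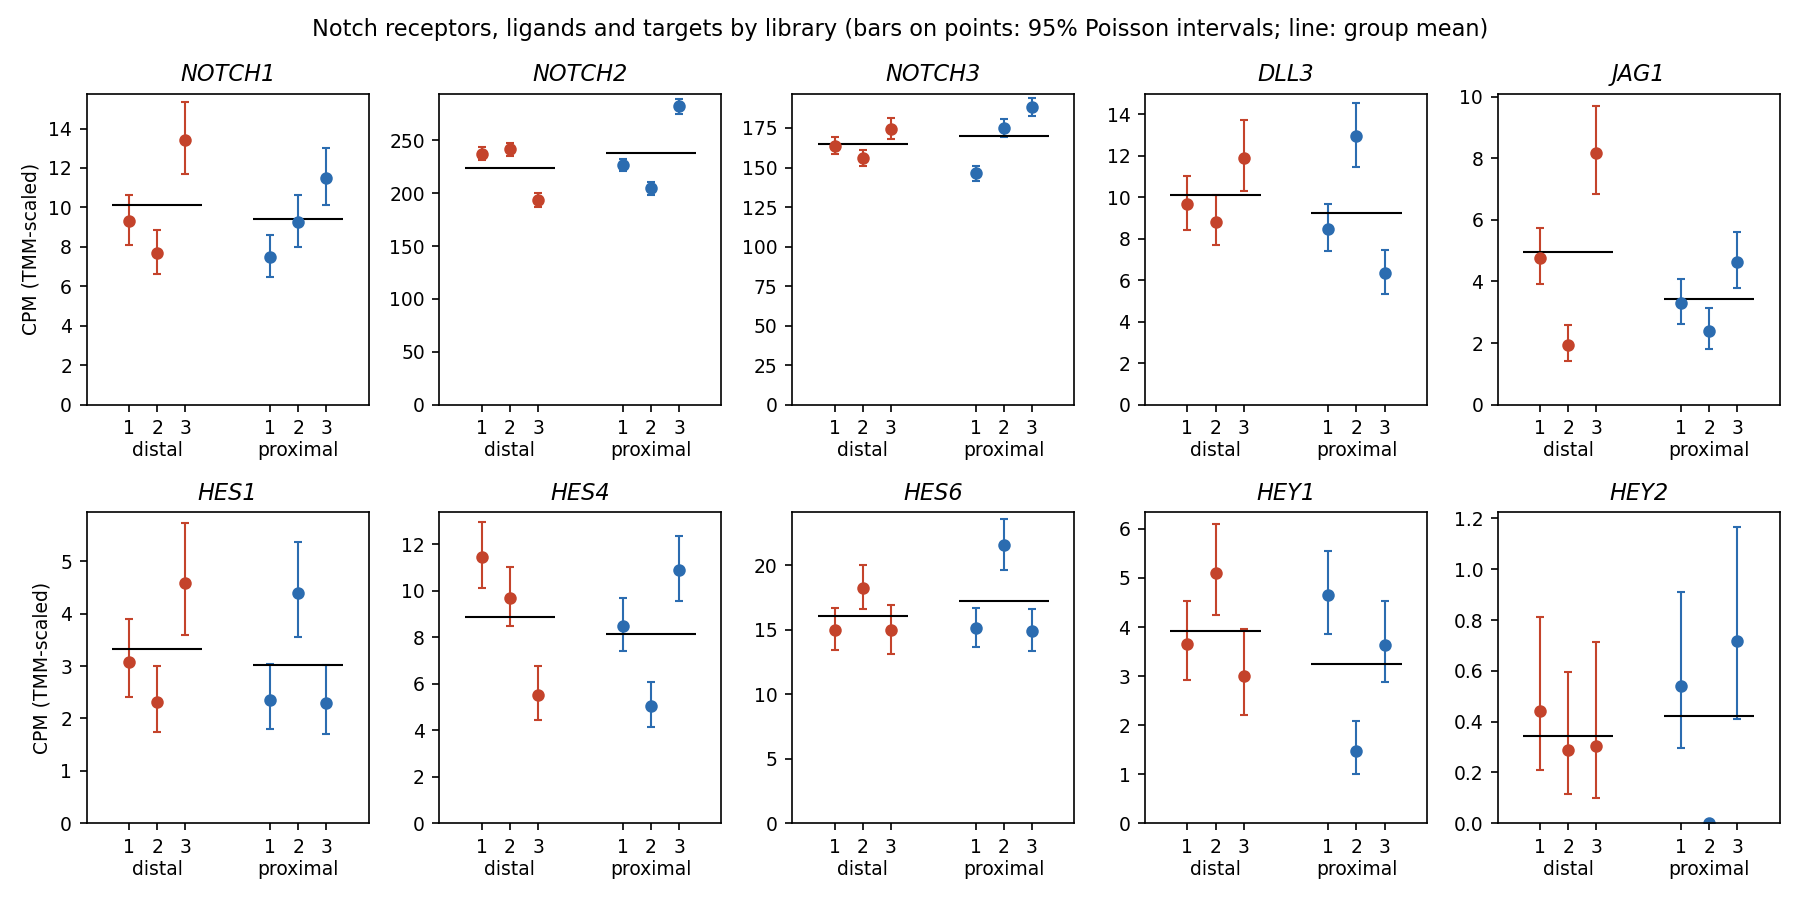
CPM of each member in the 3 distal (red) and 3 proximal (blue) libraries, with 95% Poisson intervals on the points (none is drawn for HEY2 in proximal 2, at 0) and the group mean as a line. The distal and proximal points of all 10 genes overlap.

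Of the receptors, NOTCH2 and NOTCH3 were read deeply and bounded tightly. NOTCH2 (chr1:119911553-120069626, GRCh38, minus strand) had 237, 242 and 194 CPM in the distal libraries, against 227, 205 and 282 CPM in the proximal ones. Proximal 3 was the highest and distal 3 the lowest, and the groups overlapped. NOTCH2 gave a log2 fold change of -0.08 (SE 0.13, with a 95% interval of -0.38 to 0.21), that is between 0.769-fold and 1.16-fold. It was 0.06 without proximal 3 and 0.01 without distal 3. Human-specific NOTCH2NL genes are near-identical to part of NOTCH2 and could share its reads, so its level is uncertain.

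NOTCH3 (chr19:15159038-15200981, minus strand), the receptor also typical of pericytes and vascular smooth muscle, had 164, 156 and 175 CPM in the distal libraries, against 146, 175 and 188 CPM in the proximal ones. It had the narrowest spread of the members, 1.29-fold between the highest and lowest library, which was also the median over the 10734 tested genes averaging 5 CPM or more. On the log2 scale distal minus proximal was -0.05 (SE 0.10, 95% interval -0.27 to 0.18), and it was 0.04 with proximal 3 left out. All 8 pericyte and smooth muscle markers were read in every library, summing to 233 to 758 CPM in the distal and 589 to 1023 CPM in the proximal libraries. ACTA2 made up most of that sum, with 616, 714 and 190 CPM in the distal libraries, against 548, 981 and 585 CPM in the proximal ones. Other markers of the list ran differently, and TAGLN and CSPG4 were highest in distal 3. CNN1 (0.122 to 0.462 CPM) did not pass the filter on low counts. RGS5 (0.749 to 1.74 CPM) and MYH11 (0.387 to 2.02 CPM) were low. PDGFRB, TAGLN, MCAM and CSPG4 had at least 4.02 CPM in every library. The part of these markers in the NOTCH3 reads was not tested.

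NOTCH1 (chr9:136494433-136545786, minus strand), which is known as a tumour suppressor in small cell lung cancer, had 9.30, 7.66 and 13.4 CPM in the distal libraries, against 7.47, 9.24 and 11.5 CPM in the proximal ones. Distal 3 and proximal 3 were the highest library of their group. They are also the libraries with the most muscle reads, whose part in the NOTCH1 reads was not tested. The same 2 libraries were together the 2 highest for 11.4% of all 13382 tested genes. The log2 fold change of NOTCH1 was 0.10 (SE 0.24, interval -0.43 to 0.64). It was 0.04 with muscle marker level as a covariate, -0.15 without distal 3 and -0.04 without proximal 1. Fewer cells of a type and less RNA per cell cannot be told apart in these bulk samples, here and below.

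Of the ligands, JAG1 (chr20:10637684-10673999, minus strand), an activating ligand, had the widest spread of the tested members. It had 4.76, 1.94 and 8.18 CPM in the distal libraries, against 3.29, 2.40 and 4.63 CPM in the proximal ones. The highest and the lowest library, distal 3 and distal 2, were both distal, 4.23-fold apart. Counting error did not bridge this: distal 3 had a 95% Poisson interval from 6.86 to 9.69 CPM, above the other 5 libraries, and that of distal 2 ended at 2.58 CPM. For JAG1 the log2 fold change was 0.52 (SE 0.49, interval -0.61 to 1.64), so a difference of up to 3.12-fold lay inside the interval. It was -0.04 without distal 3 and 0.90 without distal 2, where the unadjusted p was under 0.05 and the adjusted p was 0.9997 (edgeR). With the muscle covariate it was 0.36, and without both libraries numbered 3 it was 0.23. Endothelial markers, of which 8 of 9 were present, summed to 0.865 to 3.36 CPM in the distal libraries, highest in distal 3. In the proximal libraries they summed to 0.387 to 1.44 CPM. The sums rest on only 21 to 55 reads in a distal and 10 to 32 reads in a proximal library. None of these markers passed the filter on low counts. Their part in the JAG1 reads was not tested. The exons of an antisense gene, AL050403.2, overlap those of JAG1, and without a stated strand setting its reads cannot be told apart.

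DLL3 (chr19:39498895-39508481, plus strand) had 9.65, 8.82 and 11.9 CPM in the distal libraries, against 8.47, 12.9 and 6.33 CPM in the proximal ones. The highest and the lowest library, proximal 2 and proximal 3, were both proximal, 2.04-fold apart, and their Poisson intervals (11.5 to 14.5 and 5.33 to 7.47 CPM) did not meet. For DLL3 the log2 fold change was 0.13 (SE 0.26, interval -0.44 to 0.70). It was -0.08 without proximal 3 and -0.0008 without distal 3. DLL3 was thus read at 6.33 CPM or more in every library.

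Of the HES genes, HES1 (chr3:194136145-194138732, plus strand), the best-known Notch target, had 3.08, 2.31 and 4.58 CPM in the distal libraries, against 2.36, 4.39 and 2.29 CPM in the proximal ones. Each group had 1 high library, distal 3 and proximal 2. The values rest on 51 to 95 reads a library. Distal 3, with a Poisson interval from 3.60 to 5.74 CPM, lay clear of proximal 3, whose interval ran from 1.71 to 3.01 CPM. The difference in HES1, distal minus proximal on the log2 scale, was 0.14 (SE 0.36, interval -0.67 to 0.94). It was -0.16 without distal 3, -0.02 without proximal 1 and -0.03 without proximal 3.

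HES4 (chr1:998962-1000172, minus strand) had 11.5, 9.68 and 5.50 CPM in the distal libraries, against 8.47, 5.03 and 10.9 CPM in the proximal ones. Here distal 3 and proximal 2 were the low libraries, where HES1 was highest. The Poisson intervals of these low libraries (4.42 to 6.76 and 4.13 to 6.07 CPM) lay below those of the other 4, the lowest of which began at 7.39 CPM. For HES4 the fold change was, on the log2 scale, 0.13 (SE 0.34, interval -0.64 to 0.90). It was -0.10 without distal 1 and -0.12 without proximal 2. Without both libraries numbered 3 it was 0.64, where the unadjusted p was under 0.05 and the adjusted p was 0.9991 (edgeR).

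HES6 (chr2:238238267-238240662, minus strand) had 15.0, 18.3 and 15.0 CPM in the distal libraries, against 15.1, 21.6 and 14.9 CPM in the proximal ones. Proximal 2 was the highest and 4 libraries lay between 14.9 and 15.1 CPM. For HES6 the log2 fold change was -0.10 (SE 0.17, interval -0.49 to 0.29), and 0.10 without proximal 2.

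Of the HEY genes, HEY1 (chr8:79764010-79767863, minus strand) had 3.66, 5.11 and 2.99 CPM in the distal libraries, against 4.64, 1.48 and 3.64 CPM in the proximal ones. Proximal 2, with 32 reads, was the lowest, and its Poisson interval (1.01 to 2.09 CPM) lay below those of the other 5. For HEY1 the log2 fold change was 0.27 (SE 0.40, interval -0.63 to 1.17), and -0.08 without proximal 2. HEY2 (chr6:125747664-125761269, plus strand), known from the heart and vessels, did not pass the filter. It had 10, 7 and 5 reads in the distal libraries, against 14, 0 and 16 in the proximal ones. The 0 in proximal 2 allows up to 0.139 CPM (3 reads, counting error only). An exact two-sided permutation test of its log2(CPM + 0.1) gave p = 1, where 3 against 3 libraries cannot give less than 0.1.

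**Figure D3:**
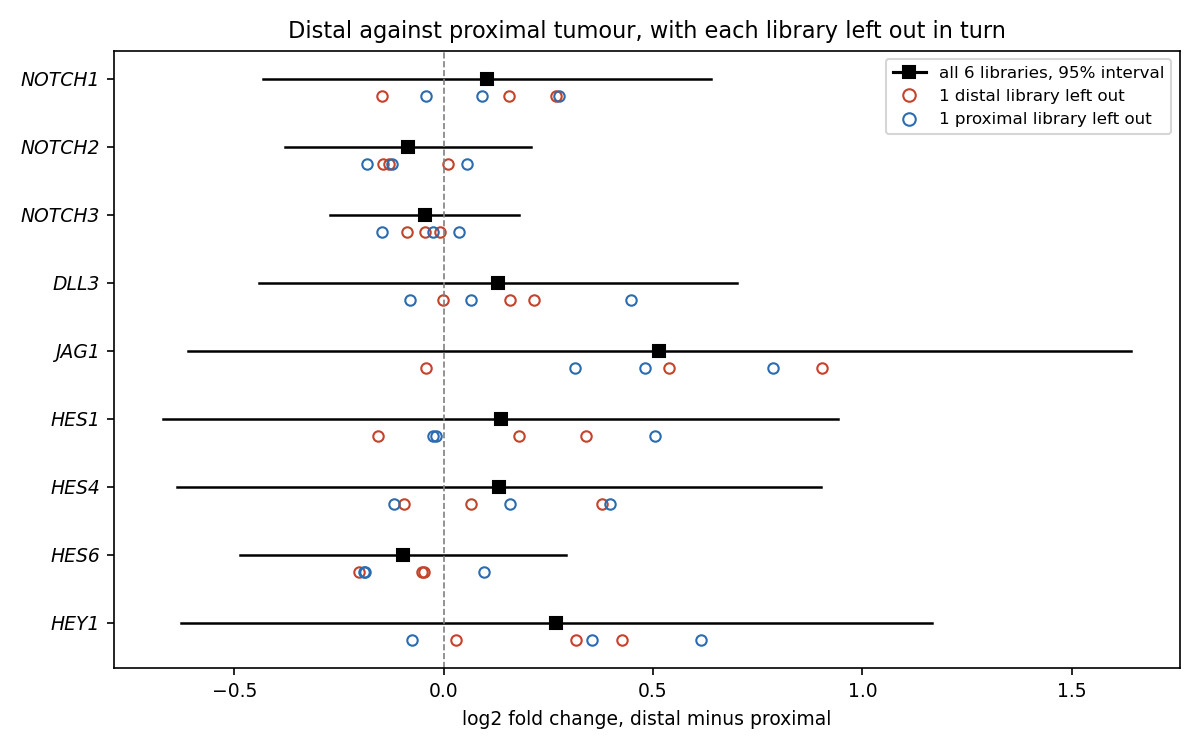
Log2 fold change (distal minus proximal) of the 9 tested members from all 6 libraries with 95% intervals (black squares and lines) and with 1 distal (red) or 1 proximal (blue) library left out (open circles). All 9 intervals cover 0 and every gene has at least 1 circle on the other side of 0 from its square.

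The intervals also say how large a difference could have gone unseen. For 7 of the 9 tested members the 95% interval lay within 2-fold in either direction, where it did so for 84.0% of all tested genes. The exceptions were JAG1 and HEY1. For NOTCH2, NOTCH3 and HES6 it lay within 1.5-fold, as it did for 69.1% of all tested genes.

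The members varied among libraries along lines that crossed the groups. Distal 3 had the fewest reads (16171106), while proximal 2 (21865148) had nearly as many as proximal 3 (22066179). Proximal 2 and distal 3 were the 2 highest for DLL3 and HES1 and the 2 lowest for NOTCH2, HES4 and HEY1. This pattern was picked out after the values were seen. The same 2 libraries were together the 2 highest or the 2 lowest for 22.3% of all 13382 tested genes, the second most frequent of the 15 possible pairs, so the arrangement is common in the data. Deviations of HES1 from its own mean (log2 scale) were 0.58 in distal 3 and 0.52 in proximal 2, where those of HES4 were -0.55 and -0.68. HES2, no member, had 4.76 and 5.03 CPM in these libraries and 6.42 to 8.28 CPM in the others, an order like that of HES4.

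**Figure D4:**
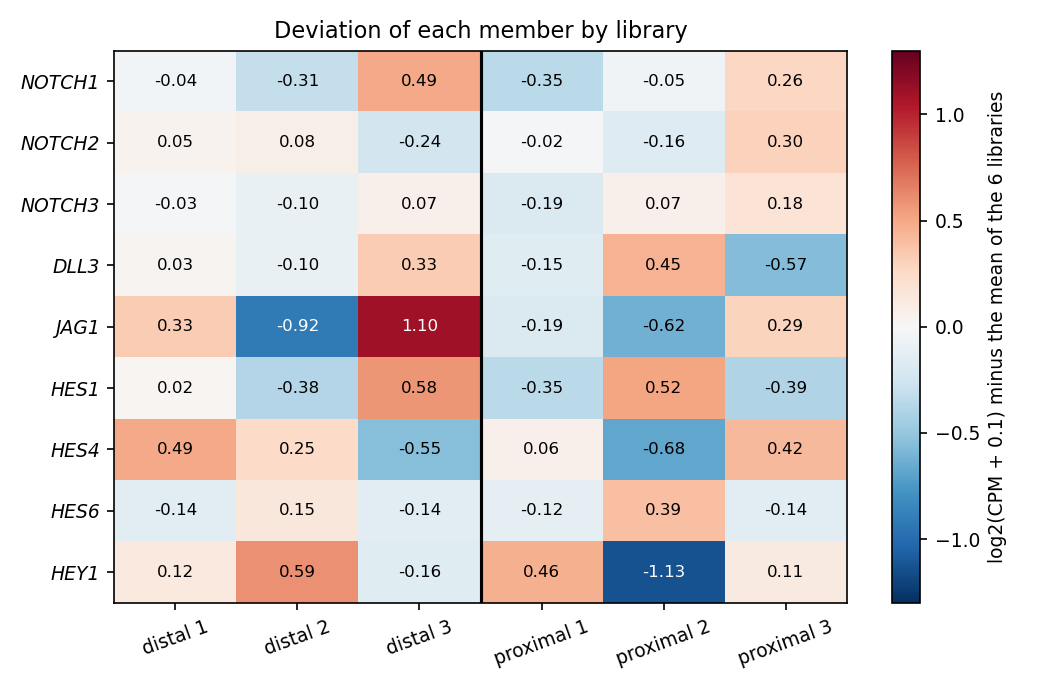
Deviation of log2(CPM + 0.1) from the mean of the 6 libraries for each tested member (rows) in the distal and proximal libraries (columns). HES1 and DLL3 are high in distal 3 and proximal 2, HES4 is low there, and JAG1 has its highest value in distal 3 (1.10) and its lowest in distal 2 (-0.92).

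The genes whose pattern was nearest to those of HES4 and DLL3, the 2 members of at least 5 CPM with the widest range, were found by the root mean square difference of log2 CPM, centred on each gene's mean, over the 6 libraries. For HES4 they were HAPLN3 (0.12), IFITM3 (0.13), ETV4 (0.13) and EPHA2 (0.14), where the median over 10732 genes was 0.48. IFITM3, an interferon-induced membrane protein, had 70.6, 68.6 and 34.6 CPM in the distal libraries, against 59.3, 41.3 and 74.4 CPM in the proximal ones. For DLL3 they were TBX3 (0.08), MYO1D (0.09), PDE9A (0.10) and BID (0.11), where the median was 0.36. TBX3, a T-box transcription factor, had 17.7, 17.2 and 21.7 CPM in the distal libraries, against 15.7, 25.1 and 13.7 CPM in the proximal ones. These genes were chosen for their likeness over the same 6 libraries, so it is a description.

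Nor did any gene of the wider pathway pass the test. Of 74 listed Notch pathway genes, members included, 73 were in the table and 67 were tested. Of these 29 had positive and 38 negative log2 fold changes, with a median log2 fold change of -0.01 beside 0.0045 for all tested genes. This split depended on the scaling and on 1 library, since 36 of the 67 were positive with upper-quartile scaling, 34 with library totals alone, and 42 of 69 without proximal 3. edgeR called 0 of the 67, none had an unadjusted p under 0.05, and DESeq2 and limma-voom called 0. The groups did not overlap for 3 of them, DLK2, FURIN and APH1A, beside 6.28% of all tested genes.

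**Figure D5:**
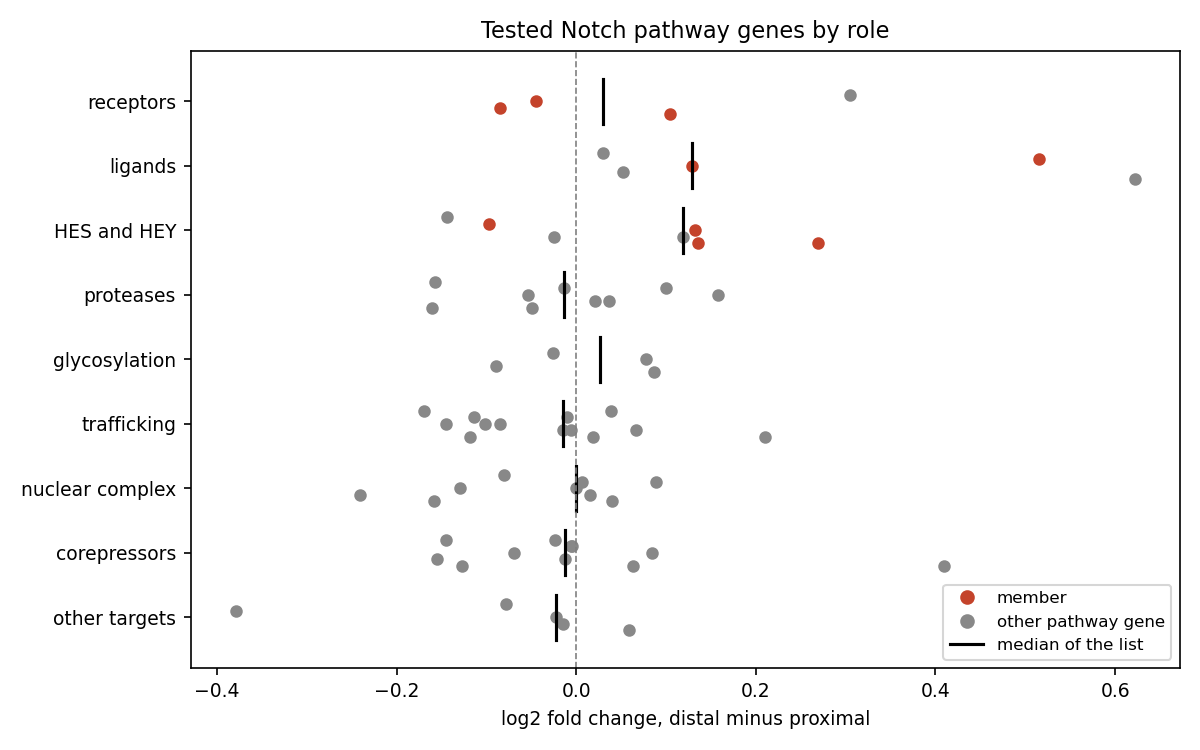
Log2 fold change (distal minus proximal) of the 67 tested Notch pathway genes by role, with members in red, other genes in grey and the median of each list as a line. Most lie between -0.2 and 0.2, and no gene passed the test.

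Counts of positive log2 fold changes by role are read beside 51.6% of all tested genes, and no direction follows from them. All 5 tested ligands were positive, with JAG2 at 0.03 and DLL1 at 0.05, while DLL3 and JAG1 turned negative with 1 library left out. DLK2, a non-canonical ligand, had the lowest p among them and a log2 fold change of 0.62 (SE 0.36), with means of 2.17 ± 0.138 CPM in distal and 1.41 ± 0.516 CPM in proximal tumour (SD, n = 3 each). Its exons overlap those of ABCC10. Of the receptors 2 of 4 were positive, with NOTCH4 at 0.30 (SE 0.41), and of the HES and HEY genes 4 of 7. Of the proteases that cut Notch 4 of 9 were positive, with NCSTN, a γ-secretase subunit, at -0.16 (SE 0.11), and FURIN, which cleaves the receptor on its way to the surface, at -0.16 (SE 0.10). FURIN had 32.7 ± 0.790 CPM in distal and 36.5 ± 2.61 CPM in proximal tumour (SD, n = 3 each).

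Of the glycosylation enzymes 2 of 4 were positive, with POFUT1, which adds O-fucose to Notch, at -0.09 (SE 0.10) and POGLUT1, which adds O-glucose, at 0.08 (SE 0.13). Of the trafficking and degradation genes 4 of 13 were positive, with MIB1, the ubiquitin ligase that activates ligands, at -0.15 (SE 0.11) and AAK1, an endocytic kinase, at -0.12 (SE 0.09). Of the nuclear complex 4 of 9 were positive. Its DNA-binding subunit RBPJ had 235 ± 10.3 CPM in distal and 257 ± 17.3 CPM in proximal tumour (SD, n = 3 each), and its log2 fold change was -0.13 (SE 0.08). EP300, a histone acetyltransferase, was at -0.24 (SE 0.12), with the lowest unadjusted p of the 67 genes, 0.07443, and an adjusted p of 0.9997 by edgeR's quasi-likelihood test.

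Of the corepressors 3 of 11 were positive, with SPEN at -0.15 (SE 0.12) and NCOR1 at -0.14 (SE 0.09). Among 5 tested other targets 1 was positive. NRARP, a feedback inhibitor that Notch induces, had 6.65 ± 1.38 CPM in distal and 8.68 ± 1.99 CPM in proximal tumour (SD, n = 3 each), and its log2 fold change was -0.38 (SE 0.23). REST, a repressor of neuronal genes that Notch is known to raise in small cell lung cancer, was read at 91.0 to 104 CPM in the 6 libraries, with a log2 fold change of -0.08 (SE 0.08).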

How the data were processed

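The authors deposited raw counts per gene symbol, with no normalization. STAR 2.7.3a and featureCounts 2.0.1 are named for these counts in the submitters' processing notes, as are Trimmomatic 0.39, bcl2fastq, DESeq2 and the GRCh38 build. Which annotation and strand setting were used, and how host reads were treated, is not given in the sources used here. Counts were analysed in R 4.3.3 with edgeR 4.0.16: expression filter by group, TMM scaling, robust quasi-likelihood test of distal against proximal, Benjamini-Hochberg adjustment over all tested genes at 0.05. The standard error is the absolute log2 fold change over the square root of F. CPM use TMM-scaled library sizes. Poisson intervals and the floor of 3 reads cover counting error only. Alternatives were other scalings and filters, DESeq2 1.42.0, limma-voom (limma 3.58.1), the replicate number as a block, a muscle covariate and libraries left out.

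The members, the 16 gene lists and the tests were chosen with earlier results of these data known. Named pathway genes are those that passed or, if none, the 2 with the lowest p in each list, and the genes of the receptor, ligand, HES and HEY lists under the filter. A few others are named for their levels. One neuroendocrine marker, and the sum of the list that holds it, are not reported here. The procedure was tested on simulated data. Gene positions and lengths are from GENCODE release 29. Figures were drawn with matplotlib 3.10.9.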

Additional observations from a re-analysis of the deposited data

How the results depend on the processing

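No member was called under any alternative, and their adjusted p lay between 0.9979 and 1. Over all genes edgeR called 0, while DESeq2 called 1 (EDIL3), and leaving out each library in turn gave 0 to 1 (EDIL3, without distal 1). With 1 library left out, 15 of 54 log2 fold changes of members turned sign, 5 of them without distal 3 and none without distal 2. The ranges were -0.15 to 0.27 for NOTCH1, -0.183 to 0.0559 for NOTCH2, -0.147 to 0.0355 for NOTCH3, -0.081 to 0.447 for DLL3, -0.0417 to 0.903 for JAG1, -0.16 to 0.51 for HES1, -0.12 to 0.40 for HES4, -0.20 to 0.10 for HES6 and -0.0761 to 0.613 for HEY1. Of the other 90 values 3 turned sign, all without both libraries numbered 3: NOTCH2 0.15, DLL3 -0.21 and HES1 -0.32, and the cause was not tested. Of the pathway genes 29 of 67 had a positive log2 fold change, and over the alternatives this count ran from 23 (muscle covariate) to 42 of 69 (without proximal 3). It passed the number of negative ones with upper-quartile scaling (36) and library totals alone (34), so its majority turned with the scaling. With the replicate number as a block, edgeR called 0 genes and 0 members and 25 pathway genes were positive, so it changed no call. Same-numbered libraries did not deviate together throughout: correlations of deviations from group means were 0.375, -0.123 and 0.183 for numbers 1, 2 and 3, so the numbers were not taken as pairs. Not every library correlated best with its own number. The median over all genes moved by less than 0.02 under other scalings. Mean read depth was lowest for HEY2, HES1, HEY1 and JAG1, with at most 134 reads a library. Counting error alone did not cover the spread of HES1, HEY1 and JAG1 between libraries.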
